A study of Rattus norvegicus with 288 samples.

Results

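Heart gene expression was compared between rats that received the oral vehicle F68 and rats that received oral water, early after dosing and without any drug. F68 here stands for a mixture of Pluronic F68 (a block copolymer surfactant), propylene glycol and PEG400, the vehicle used for sorafenib, and water was the vehicle used for sunitinib. The members were the heart arrays labelled 1 or 6 h whose rats had first been infused with D5W (dextrose in water, the vehicle of oxaliplatin) and then dosed with F68 or with sterile water: 16 of the 288 arrays of the series, 4 rats for each vehicle and time. The arrays at 24 h were left out because the beta-actin control probe sets diverged there.

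All 96 rats of the series were male Sprague Dawley rats, 8 weeks old, and gave heart, kidney and liver to Affymetrix Rat Genome 230 2.0 arrays, a platform that reads RNA from bulk tissue. Each rat was infused intravenously for 30 min and then dosed by mouth. The heart sample was the apex with parts of the left and right ventricle. Rats dosed with F68 were dosed on another day than rats dosed with water, and the number within the array codes also differed between the 4 groups, so vehicle, dosing day and array code cannot be told apart in any comparison of F68 with water below. No group without an infusion or an oral dose was included, so each value is a difference between vehicles.

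The heart is built of contracting muscle cells, which fill most of its volume and burn fatty acids and lactate in densely packed mitochondria, and of endothelial cells, fibroblasts, resident macrophages and other cells in between. Handling, infusion and oral dosing can raise immediate early genes, which are transcribed within minutes of a stimulus, and chemokines, which draw leukocytes into a tissue. Propylene glycol is oxidised to lactate in the body, and lactate enters heart muscle through monocarboxylate transporters.

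The arrays held the tissue on their label. The median level of 8 heart markers lay between 14.40 and 14.48 on the log2 scale over the 16 arrays, against 5.37 to 5.82 for the kidney markers and 5.42 to 7.24 for the liver markers. Liver transcripts were present on some of the 1 h arrays: Alb, which encodes serum albumin, read 6.45, 9.40, 10.05 and 11.02 in the water rats 1 to 4 and 5.89, 11.83, 9.20 and 5.39 in the F68 rats 1 to 4. High and low values occurred under both vehicles, and the groups overlapped. The 3′ minus 5′ signal of beta-actin, a sign of RNA integrity and labelling, was 0.366 ± 0.064 (SD, n = 4) with F68 and 0.478 ± 0.033 (SD, n = 4) with water at 1 h (exact two-sided permutation p = 0.0286, the smallest that 4 against 4 arrays allow), and did not pass the test at 6 h (0.267 against 0.316, exact two-sided permutation p = 0.257). The share of this measure in the results at 1 h was not tested except through the fit with it as a covariate, given below.

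At 1 h after the D5W infusion, 1316 of 11316 genes differed between F68 and water (limma, adjusted p under 0.05; 11.6% of all genes tested): 656 were higher with F68 (5.8%) and 660 lower (5.83%). Most differences were small. The median log2 difference was 0.25 over the genes called higher and -0.34 over those called lower, 18 genes were at least 2-fold lower, and 0 were at least 2-fold higher. At 6 h 2 genes differed (0.0177%), both lower with F68, and 1389 had an unadjusted p under 0.05. The volcano plot sets both times side by side.

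**Figure D1:**
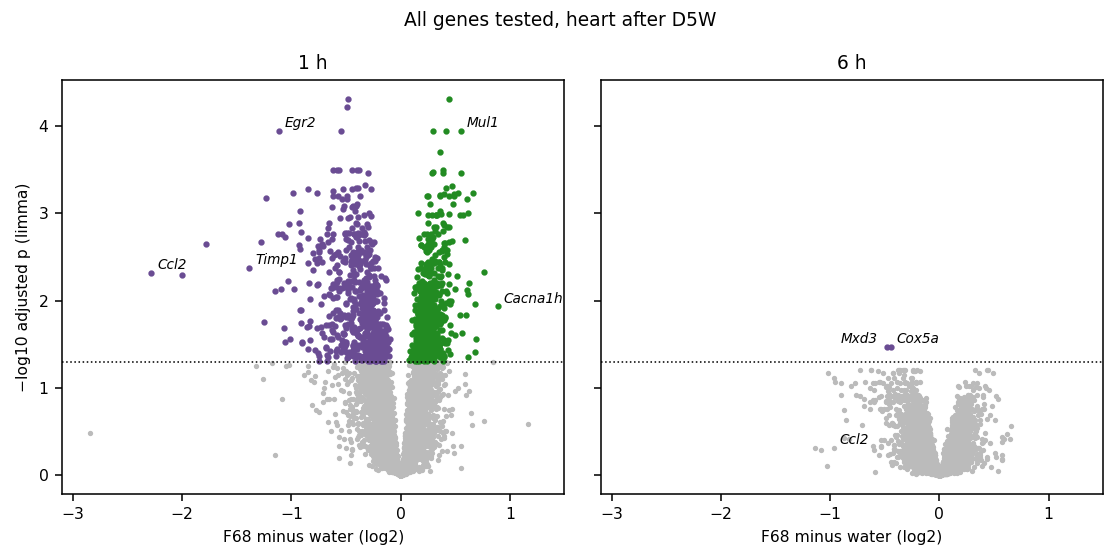
Log2 difference of F68 minus water in heart after D5W (x axis) against -log10 of the limma adjusted p (y axis) for the 11316 genes tested, at 1 h (left) and 6 h (right). Green points were called higher, purple points lower, and the dotted line is an adjusted p of 0.05; 1316 points lie above it at 1 h and 2 at 6 h.

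The 8 rats at 1 h did not contribute evenly. Of the 1316 genes called, 769 had groups that did not overlap, 460 of the 656 higher and 309 of the 660 lower, whereas 11.8% of all genes tested had such groups (7.33% higher with F68 and 4.5% lower). The count fell to 505 without water rat 3, to 668 without F68 rat 2 and to 738 without F68 rat 4, and it rose to 1490 without F68 rat 3. Leaving out water rats 3 and 4 together, whose Ccl2 was highest, left 125 genes (40 higher, 85 lower), of which 112 were among the 1316. Leaving out the arrays with the highest liver markers, F68 rat 2 and water rat 4, left 490. The fit with beta-actin as a covariate called 637 (314 higher, 323 lower), and quantile normalization of the heart arrays called 523 higher and 795 lower. With only the 16 vehicle arrays after D5W in the fit, whose spread comes from those rats alone, 371 were called (201 higher, 170 lower).

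Chemokines and other genes of tissue inflammation were lower with F68 at 1 h. Of 15 inflammation genes measured, 6 were lower, 0 higher and 9 did not pass, with a median log2 difference of -0.31 against 0.00 over all genes. Ccl2, which encodes a chemokine that draws monocytes, differed most of all genes called.

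Ccl2 read 8.48, 9.66, 12.38 and 11.30 in the water rats 1 to 4 and 9.02, 7.38, 8.18 and 8.12 in the F68 rats 1 to 4. Water rats 3 and 4 stood above all F68 rats, water rat 2 slightly so, and water rat 1 fell within the F68 range. The difference was -2.28 ± 0.56 (SE), or 4.87-fold lower with F68 (adjusted p = 0.00485). Ccl7, a chemokine of the same family, read 6.45, 7.29, 9.93 and 8.75 with water and 6.95, 5.83, 6.46 and 6.03 with F68 (-1.79 ± 0.40, adjusted p = 0.00226). Timp1, an inhibitor of matrix metalloproteinases, read 9.50, 10.08, 12.32 and 10.94 with water and 9.69, 9.01, 9.47 and 9.12 with F68 (-1.39 ± 0.34, adjusted p = 0.00426). In both genes the same water rats 3 and 4 were the highest and water rat 1 lay among the F68 rats.

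Reg3b, which encodes a secreted lectin, read 7.11, 7.53, 9.19 and 8.41 with water and 6.45, 5.87, 5.54 and 6.35 with F68, so that the groups did not overlap (-2.01 ± 0.50, adjusted p = 0.00513). Its F68 values lay near the log2 floor of 6 set for testing, so the size of its difference is uncertain. Tnfaip6, a hyaluronan-binding protein that inflammatory cytokines raise, read 6.53, 6.99, 9.15 and 8.36 with water and 6.80, 6.48, 6.43 and 6.22 with F68 (-1.28 ± 0.28, adjusted p = 0.00211). Cxcl1, a chemokine for neutrophils, read 6.72, 6.94, 8.46 and 8.14 with water and 7.04, 6.20, 6.54 and 6.16 with F68 (-1.08 ± 0.24, adjusted p = 0.00173). Water rats 3 and 4 were again the high ones in all 3 genes. Ch25h, the cholesterol 25-hydroxylase of activated macrophages, stood at -1.24 ± 0.24, Tnfrsf11b, the decoy receptor osteoprotegerin, at -1.12 ± 0.25, Nfkbiz, a nuclear partner of NF-kappa-B, at -0.51 ± 0.15, and Socs3, a brake on cytokine signalling, at -0.31 ± 0.09.

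The inflammation calls rested on those rats. The list had 1 member called without water rat 3, 5 without water rat 4 and 0 without both, and Ccl2, Ccl7, Timp1, Reg3b and Tnfaip6 each lost their call without water rat 3. With only the vehicle arrays in the fit the list had 0 called. The mean level of the list was 7.55, 7.73, 8.73 and 8.14 in the water rats 1 to 4 and 7.80, 7.24, 7.47 and 7.25 in the F68 rats. After oxaliplatin, in other rats dosed with the same vehicles, Ccl2 at 1 h read 8.34, 9.52, 9.32 and 9.38 with water and 10.81, 8.92, 8.18 and 10.23 with F68, a difference of 0.40 that did not pass (adjusted p = 0.814). At 6 h after D5W it read 8.36, 9.16, 8.18 and 9.28 with water and 7.15, 8.69, 8.10 and 7.17 with F68 (-0.97, adjusted p = 0.495). The values of water rats 3 and 4 at 1 h after D5W were not reached by any rat of these other groups.

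**Figure D2:**
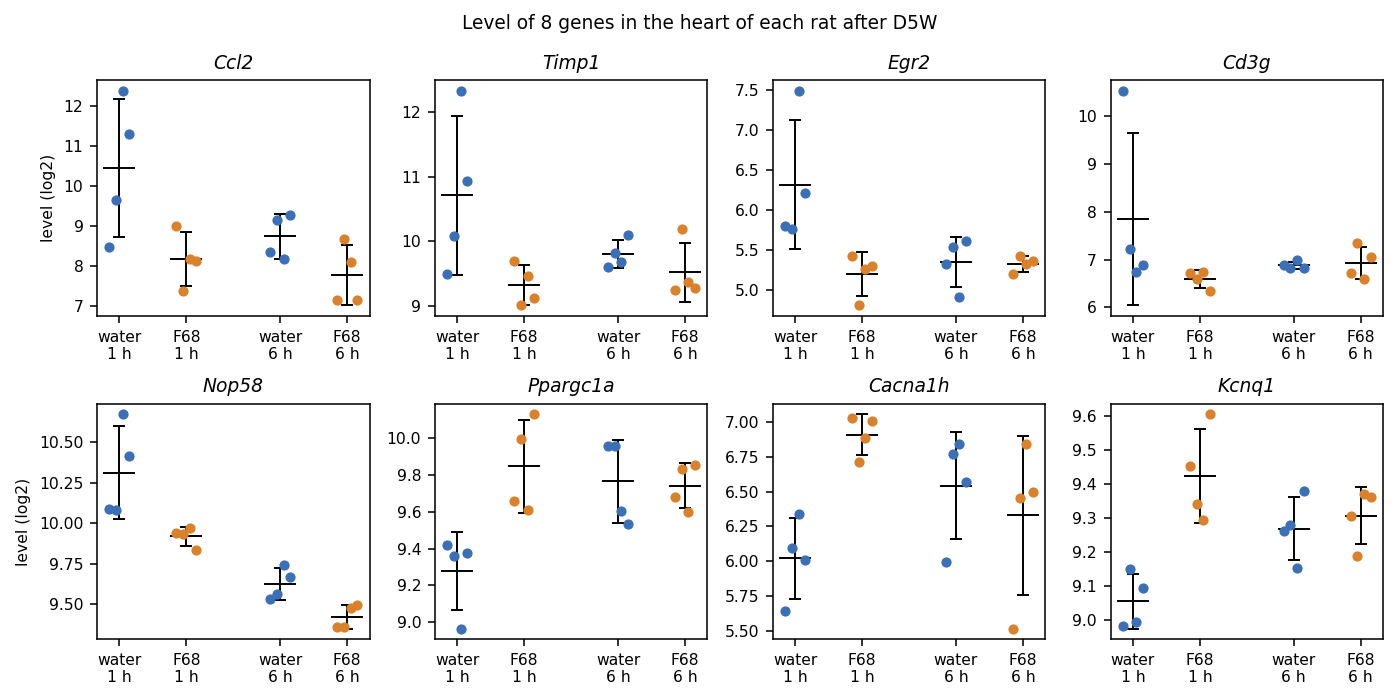
Log2 level of 8 genes in each heart after D5W, in 4 water rats (blue) and 4 F68 rats (orange) at 1 and 6 h, drawn from left to right as rats 1 to 4; bars are mean ± SD. Ccl2, Timp1 and Egr2 at 1 h are highest in water rat 3, Cd3g in water rat 1, and Ppargc1a, Cacna1h and Kcnq1 separate the 1 h groups without overlap.

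Immediate early genes followed the same rats in part. Of 22 measured, 8 were lower with F68 at 1 h, 0 higher and 14 did not pass (median -0.26). Egr2, a zinc finger factor of this class, read 5.80, 5.76, 7.49 and 6.22 with water and 5.43, 4.82, 5.27 and 5.30 with F68, without overlap (-1.11 ± 0.19, adjusted p = 0.000113). All its F68 values lay below 6, the log2 floor that 4 arrays had to pass for a gene to be tested, and near the level of the kidney markers in these hearts, so the size of its difference is uncertain. Ier2, another transcriptional regulator of the class, read 9.06, 9.09, 9.62 and 9.16 with water and 8.81, 8.86, 8.96 and 8.68 with F68, also without overlap (-0.40 ± 0.09, adjusted p = 0.00173). Water rat 3 was the highest in both genes. Egr1 stood at -1.10 ± 0.29, the growth regulator Myc at -0.70 ± 0.19, Ier3 at -0.45 ± 0.11 and Klf6 at -0.37 ± 0.12, and Atf3, a stress-induced factor, at -0.75 ± 0.26 with an adjusted p of 0.0498. The list had 1 member called without water rat 3, 0 without water rats 3 and 4, and 2 with only the vehicle arrays in the fit. After oxaliplatin at 1 h, 0 of the 22 passed, and Egr2 stood at -0.01 and Egr1 at -0.24.

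Angptl4, an inhibitor of lipoprotein lipase that fasting raises, read 5.61, 6.01, 7.63 and 7.53 with water and 5.57, 5.72, 5.26 and 5.63 with F68 (-1.15 ± 0.30, adjusted p = 0.00774). All its F68 values lay below the floor of 6, so the size of its difference is uncertain. Its high values were those of water rats 3 and 4, and the call was lost without either. Xirp1, an actin-binding protein of the intercalated disc, stood at -0.56 ± 0.16 (adjusted p = 0.0164). It read 0.08 (F68 higher) without water rats 3 and 4.

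Markers of macrophages were lower with F68 at 1 h: of 13 measured, 7 were lower, 0 higher and 6 did not pass (median -0.55, with all 13 below 0). In bulk tissue fewer cells of a type and less RNA per cell cannot be told apart. Cd14, the co-receptor for bacterial lipopolysaccharide, read 8.08, 8.74, 10.05 and 9.17 with water and 8.48, 7.55, 8.20 and 8.09 with F68 (-0.93 ± 0.20, adjusted p = 0.00129). Aif1, a calcium-binding protein of macrophages, read 7.81, 8.16, 7.89 and 7.68 with water and 7.38, 6.66, 7.62 and 6.84 with F68 (-0.76 ± 0.19, adjusted p = 0.00646). Cd14 was highest in water rat 3, whereas Aif1 was level over the water rats and separated the groups without overlap. The complement genes C1qa (-0.65 ± 0.17) and C1qc (-0.55 ± 0.18), the lysosomal protein Cd68 (-0.59 ± 0.18) and the lysozyme Lyz2 (-0.59 ± 0.20) were also lower. The list had 2 members called without F68 rat 2 or without water rat 3, 3 without F68 rat 4 or without water rat 2, 10 without F68 rat 3, 0 without water rats 3 and 4, and 0 without the arrays of highest liver markers. Its median was -0.36 without water rats 3 and 4 and -0.39 without the arrays of highest liver markers. With only the vehicle arrays in the fit the list had 1 called. After oxaliplatin it had 0 of 13 lower at 1 h and 1 at 6 h, which was Aif1 (-0.62, adjusted p = 0.0362).

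Other cell type markers at 1 h stood as follows. Of 8 heart muscle markers 1 was higher with F68, the calcium channel gene Ryr2, and 7 of the 8 lay above 0. Their mean level was 14.09 to 14.13 with water and 14.15 to 14.21 with F68, without overlap of the groups. Of all single genes, 7.33% were higher without overlap. The median level of the same markers did overlap, at 14.40 to 14.45 with water and 14.44 to 14.47 with F68 (exact two-sided permutation p = 0.4). At 1 h after oxaliplatin 6 of the 8 lay below 0 (median -0.05), with 0 called higher and 1 lower. All 13 fibroblast markers (median -0.11) and all 5 erythroid markers (median -0.16) lay below 0 with 0 called, and the mean levels overlapped in both lists. The part of cell makeup in the results on macrophage, cell division and muscle genes was not tested.

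The T cell genes called rested on 1 array. Of 10 lymphocyte markers 4 were lower with F68 at 1 h, 0 higher and 6 did not pass. Cd3g, a chain of the T cell receptor complex, read 10.53 in water rat 1 and 7.23, 6.74 and 6.88 in water rats 2 to 4, against 6.73, 6.59, 6.74 and 6.34 with F68 (-1.25 ± 0.37, adjusted p = 0.0174). Cd3e, a further chain, read 8.80 in water rat 1 and 5.95 to 6.34 in the other water rats, against 5.60 to 6.15 with F68 (-0.93 ± 0.26). Apart from water rat 1 its values lay near the floor of 6, so the size of its difference is uncertain. Lck, the kinase that signals from this receptor, read 9.86, 8.50, 8.34 and 8.04 with water and 7.80, 7.82, 8.27 and 7.78 with F68 (-0.77 ± 0.20). The list had 0 members called without water rat 1, the 4 called being Cd3g, Cd3d (-1.07 ± 0.32), Cd3e and Lck. With only the vehicle arrays in the fit it also had 0 called. Proliferation genes, given next, were also highest in that rat at 1 h, with a mean level of 7.96 against 7.66 to 7.80 in the other water rats. The part of lymphoid cells in this was not tested.

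Of 21 interferon-induced genes 2 were lower, where 5.83% of all genes were, and 20 of the 21 lay below 0 with a median of -0.47. Psmb8, a subunit of the immunoproteasome, was lower without overlap of the groups (-0.84 ± 0.21, adjusted p = 0.00627), and so was the chemokine Cxcl10 (-0.90 ± 0.29, adjusted p = 0.0296). Of all genes, 4.5% were lower without overlap. With the 8 rats left out in turn, Cxcl10 lost its call without 4 of them and Psmb8 without 0. Both lost it without water rats 3 and 4. Cxcl10 also lost it with the beta-actin covariate and without the arrays of highest liver markers. The mean level of the list was 8.91 to 9.26 in the water rats and 8.52 to 8.91 in the F68 rats. After oxaliplatin the list stood at -0.12 at 1 h and at -0.36 at 6 h, all 21 below 0 at the later time, with 0 called at either.

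**Figure D3:**
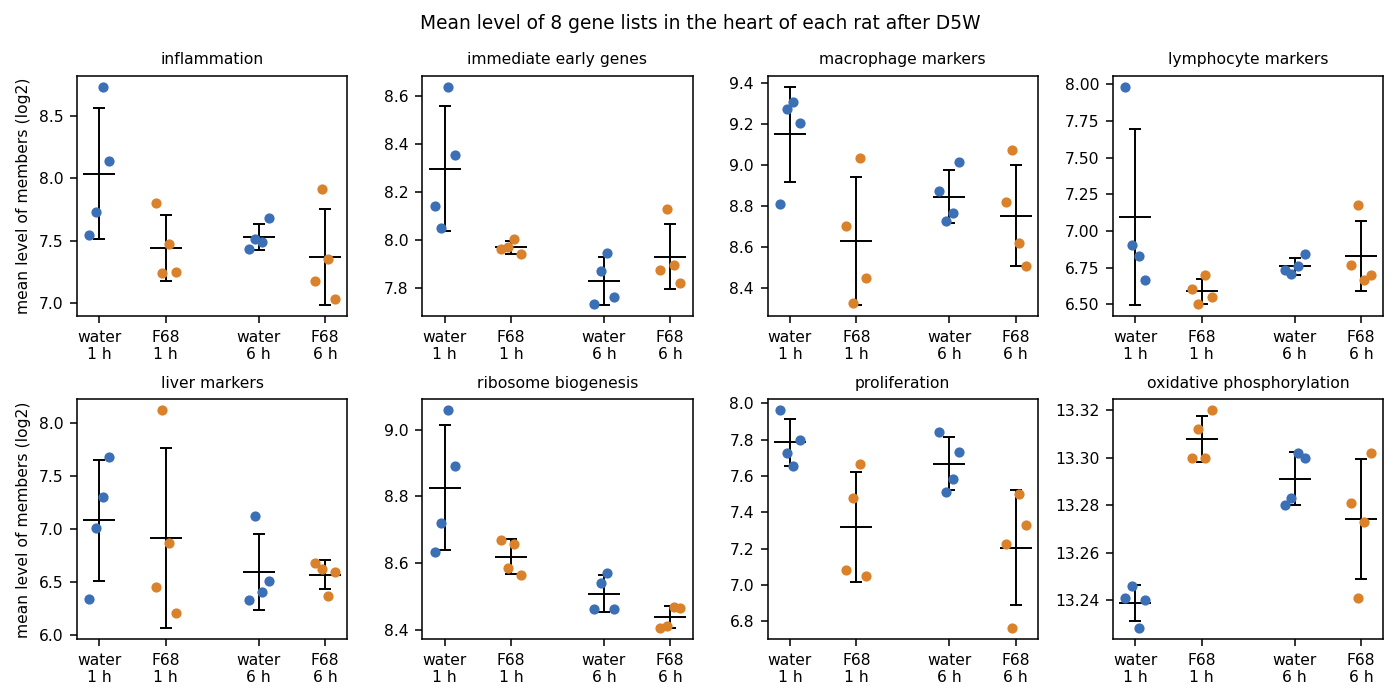
Mean log2 level of the measured members of 8 gene lists in each heart after D5W, 4 water rats (blue) and 4 F68 rats (orange) at 1 and 6 h, from left to right rats 1 to 4; bars are mean ± SD. At 1 h inflammation is highest in water rat 3 (8.73), lymphocyte markers in water rat 1 (7.98), and oxidative phosphorylation separates the groups over a range of 13.23 to 13.32.

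Genes for making ribosomes were lower with F68 at 1 h. Of 29 measured 14 were lower, 0 higher and 15 did not pass, and 28 of the 29 lay below 0 (median -0.20). Nop58, a core protein of the box C/D particles that methylate ribosomal RNA, read 10.09, 10.08, 10.67 and 10.41 with water and 9.94, 9.93, 9.97 and 9.84 with F68 (-0.39 ± 0.07, adjusted p = 0.000507). Its partner Nop56 read 9.68, 9.68, 10.07 and 9.92 with water and 9.64, 9.52, 9.59 and 9.53 with F68 (-0.27 ± 0.05, adjusted p = 0.00053). The F68 rats lay close together and below every water rat in both genes, and water rats 3 and 4 were the highest. Fbl, the methylase of the same particles, stood at -0.40 ± 0.08, the assembly factors Nip7 and Bop1 at -0.53 ± 0.10 and -0.29 ± 0.06, and nucleostemin, Gnl3, at -0.35 ± 0.08. The list had 7 members called without water rat 3, 0 without water rats 3 and 4, and 3 with only the vehicle arrays in the fit. At 6 h its median was -0.07 with 0 called, and after oxaliplatin 0 were lower at 1 h and 2 at 6 h.

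The cell division genes all had a difference below 0 in each of the 4 pairs of groups, and many were called lower in 2 of the pairs. At 1 h after D5W 16 of 25 were lower, 0 higher and 9 did not pass, with all 25 below 0 and a median of -0.43. Mki67, the proliferation marker Ki-67, read 8.80, 8.55, 8.49 and 8.80 with water and 7.18, 8.14, 8.34 and 7.24 with F68 (-0.93 ± 0.21, adjusted p = 0.00229). Cdc20, which activates the ligase that starts anaphase, read 8.52, 8.44, 8.27 and 8.43 with water and 7.76, 7.98, 8.05 and 7.59 with F68 (-0.57 ± 0.14, adjusted p = 0.00471). In both genes the water rats lay close together, water rats 3 and 4 did not stand apart from rats 1 and 2, and F68 rats 1 and 4 were the lowest. The mitotic kinase Bub1 (-0.58 ± 0.14), the replication clamp Pcna (-0.32 ± 0.07), the helicase subunit Mcm3 (-0.43 ± 0.10) and the phosphatase Cdkn3 (-0.75 ± 0.26) were also lower.

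At 6 h after D5W 0 of these 25 passed, but all 25 again lay below 0 with a median of -0.39, against -0.02 over all genes. Mki67 read 8.58, 7.93, 8.03 and 8.39 with water and 7.52, 6.74, 7.97 and 7.61 with F68 (-0.77, adjusted p = 0.0879), and Cdc20 read 8.65, 8.02, 8.15 and 8.46 with water and 7.81, 7.17, 8.02 and 7.76 with F68 (-0.63, adjusted p = 0.0621). F68 rat 3 was the F68 rat closest to the water rats in both genes. After oxaliplatin the list had 0 called at 1 h (median -0.18, all 25 below 0) and 15 lower at 6 h (median -0.43, all 25 below 0), where 6.5% of all genes were lower. Of the 25, 14 were lower both at 1 h after D5W and at 6 h after oxaliplatin, groups that share no array. The count at 1 h after D5W was 4 without F68 rat 4, 6 without F68 rat 1, 20 without F68 rat 3, 10 without water rat 1, 5 without water rats 3 and 4, and 7 with the beta-actin covariate. With only the vehicle arrays in the fit it was 1. The median of the list was -0.40 without F68 rat 4, -0.48 without water rats 3 and 4 and -0.43 with the covariate.

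Cdca8, borealin of the chromosomal passenger complex, was the single gene lower without overlap of the groups in all 4 pairs, a pattern singled out after its values were seen. Of all genes, 4.5% and 3.04% were lower without overlap at 1 and 6 h after D5W, and 3.68% and 7.3% at 1 and 6 h after oxaliplatin. It read 7.42, 7.21, 7.18 and 7.25 with water and 6.75, 6.96, 6.94 and 6.58 with F68 at 1 h after D5W, and 7.51, 7.08, 7.21 and 7.19 with water and 6.80, 6.44, 6.99 and 6.90 with F68 at 6 h. The differences were -0.46 (adjusted p = 0.018) and -0.46 (adjusted p = 0.117), and after oxaliplatin -0.33 at 1 h (adjusted p = 0.248) and -0.49 at 6 h (adjusted p = 0.0157). The promoters of many cell division genes carry CCAAT boxes, which the factor NF-Y binds, and a cell cycle homology region (CHR, TTTGAA), which the DREAM complex binds. The promoters below, from RefSeq on GRCr8, hold 300 bases around the gene start, 5′ to 3′ on the gene's strand, and are shown because these genes carry the result on cell division. Capitals mark CCAAT or TTTGAA on either strand (ATTGG or TTCAAA where reversed), and TTTGAATTGG is a CHR overlapping a reversed CCAAT box.
Mki67, chr1:199952544-199952843, minus strand: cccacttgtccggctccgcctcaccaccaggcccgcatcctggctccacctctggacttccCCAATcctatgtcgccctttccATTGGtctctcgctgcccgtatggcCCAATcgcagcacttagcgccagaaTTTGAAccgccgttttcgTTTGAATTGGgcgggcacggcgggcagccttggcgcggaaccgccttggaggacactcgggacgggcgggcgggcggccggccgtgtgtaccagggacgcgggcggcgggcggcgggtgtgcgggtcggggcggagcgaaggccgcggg
Cdc20, chr5:137255750-137256049, minus strand: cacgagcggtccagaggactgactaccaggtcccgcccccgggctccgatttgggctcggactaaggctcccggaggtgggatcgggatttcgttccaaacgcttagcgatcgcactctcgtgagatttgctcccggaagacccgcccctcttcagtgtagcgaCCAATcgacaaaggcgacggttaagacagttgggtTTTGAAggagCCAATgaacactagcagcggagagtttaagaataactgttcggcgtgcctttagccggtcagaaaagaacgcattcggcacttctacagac
Cdca8, chr5:142483150-142483449, minus strand: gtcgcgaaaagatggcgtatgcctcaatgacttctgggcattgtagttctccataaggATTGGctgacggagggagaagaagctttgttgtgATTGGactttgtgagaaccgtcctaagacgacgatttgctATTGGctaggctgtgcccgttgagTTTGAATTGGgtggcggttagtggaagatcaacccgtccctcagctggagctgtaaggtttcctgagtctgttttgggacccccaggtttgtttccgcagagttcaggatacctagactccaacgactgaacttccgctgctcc

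These promoters held 4, 2 and 4 CCAAT boxes and 2, 1 and 1 CHR letters. Of the 20 measured proliferation genes with a promoter in the table, 10 (50.0%) held both motifs, against 4.6% of the 9420 promoters of genes tested in heart and 7.25% of all 27457 promoters. These motifs were chosen after seeing the data and counted in a list defined by cell division, so their share does not bear on F68. A match of letters is a description and not a bound site. Other motifs were set beforehand. The E-box (CACGTG) lay in 8.63% of promoters of genes higher at 1 h and 9.3% of those lower, against 9.41% of measured genes. The cAMP element (TGACGTCA) lay in 2.52% and 2.86%, against 3.18%, and the D-box (TTANGTAA) in 1.44% and 1.07%, against 1.2%. The glucocorticoid element lay in 0.54% and 0.358%, against 0.318%, and the PPAR element in 0% and 0%, against 0.0425%.

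Muscle and mitochondrial genes made up part of the genes that were higher with F68 at 1 h. Of 17 cardiac ion channel and gap junction genes 6 were higher, 0 lower and 11 did not pass (median 0.19). Kcnq1, the channel of the slow delayed rectifier current that repolarises heart muscle, read 8.98, 9.15, 8.99 and 9.10 with water and 9.45, 9.34, 9.29 and 9.61 with F68, without overlap (0.37 ± 0.09, adjusted p = 0.00666). Kcnj11, the pore of the ATP-sensitive potassium channel, read 10.17, 10.25, 10.09 and 9.95 with water and 10.39, 10.45, 10.40 and 10.35 with F68, also without overlap (0.28 ± 0.06, adjusted p = 0.00173). Kcnj3, a channel that acetylcholine opens (0.47 ± 0.14), Kcnh2, of the rapid delayed rectifier (0.33 ± 0.09), Kcnip2, a subunit of the transient outward current (0.23 ± 0.07), and the ventricular connexin Gja1 (0.22 ± 0.08) were the others. Cacna1h, a T-type calcium channel, had the highest difference of the genes called and read 5.64, 6.09, 6.34 and 6.01 with water and 7.03, 6.72, 6.88 and 7.01 with F68 (0.89 ± 0.25, adjusted p = 0.0117). Its water values lay near the floor of 6 set for testing and no detection call was used, so the size of this difference is uncertain. At 6 h it read 5.99, 6.77, 6.84 and 6.57 with water and 5.51, 6.46, 6.85 and 6.50 with F68, and the groups overlapped. The channel list had 3 to 7 members called with 1 rat left out, 3 with the beta-actin covariate and 0 without water rats 3 and 4, and its median was 0.19 with the covariate and 0.18 without those rats. With only the vehicle arrays in the fit it had 3 called. At 6 h after D5W its median was 0.12 with 0 called. After oxaliplatin its median was 0.03 at 1 h with 1 member higher, and 0.13 at 6 h with 0 called.

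Ppargc1a, the coactivator that raises mitochondrial genes, read 9.42, 9.36, 8.97 and 9.38 with water and 9.66, 9.99, 9.61 and 10.13 with F68 at 1 h, without overlap (0.57 ± 0.12, 1.48-fold higher, adjusted p = 0.00104). Mul1, a ubiquitin ligase of the outer mitochondrial membrane singled out after its values were seen, read 7.59, 7.50, 7.47 and 7.52 with water and 8.02, 8.27, 7.95 and 8.06 with F68 (0.56 ± 0.09, adjusted p = 0.000113). Its water rats lay close together and every F68 rat lay above them. Pdk2, a kinase that holds back pyruvate dehydrogenase, read 12.05, 12.04, 12.06 and 12.04 with water and 12.36, 12.37, 12.26 and 12.38 with F68 (0.29 ± 0.05, adjusted p = 0.000113). Of 98 calls at 1 or 6 h of genes named by rule, only those of Pdk2 and Mcm3 at 1 h were kept under every alternative run. Mul1 and the others named only after their values were seen were not among the 98. Of 23 oxidative phosphorylation genes 6 were higher, 0 lower and 17 did not pass. None of the 23 lay below 0, but the median was 0.06 log2 only. Ndufv1, of complex I, read 13.06 to 13.10 with water and 13.16 to 13.24 with F68 (0.13 ± 0.04, adjusted p = 0.0111), and Sdha (0.17), Ndufs1 (0.14), Uqcrc2 (0.12) and Sdhd (0.10) were further members. The list had 1 member called without F68 rat 2, without F68 rat 4 or without water rat 3, 1 with the beta-actin covariate, 2 with quantile normalization and 0 without water rats 3 and 4. With only the vehicle arrays in the fit it also had 0 called. Its median was 0.03 with quantile normalization and 0.05 without water rats 3 and 4. The list did not stand higher with F68 in the other pairs. At 6 h after D5W its median was -0.0042 with 1 member lower. After oxaliplatin the median was 0.0005 at 1 h with 0 called, and -0.0002 at 6 h with 1 higher and 1 lower.

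Ryr2, the calcium release channel of the sarcoplasmic reticulum, read 12.82, 12.84, 12.82 and 12.69 with water and 13.02, 13.27, 12.86 and 13.27 with F68 (0.32 ± 0.07, adjusted p = 0.00355). The giant sarcomere protein Ttn read 13.54, 13.45, 13.46 and 13.46 with water and 13.66, 13.79, 13.57 and 13.73 with F68 (0.21 ± 0.05, adjusted p = 0.00689). F68 rats 2 and 4 were the highest in both genes. With Xirp1 they were the 3 of 17 cardiac stress and contractile genes that passed, where 11.6% of all genes did. Cpt1b, which loads fatty acids into muscle mitochondria, read 12.10, 12.04, 12.04 and 12.09 with water and 12.33, 12.41, 12.19 and 12.35 with F68 (0.25 ± 0.06, adjusted p = 0.00359), and Etfdh, which passes electrons from fatty acid oxidation to ubiquinone, stood at 0.20 ± 0.06. With Angptl4, which was lower, these were 3 of 26 genes of fatty acid oxidation and PPAR alpha, a share near the 11.6% of all genes called.

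**Figure D4:**
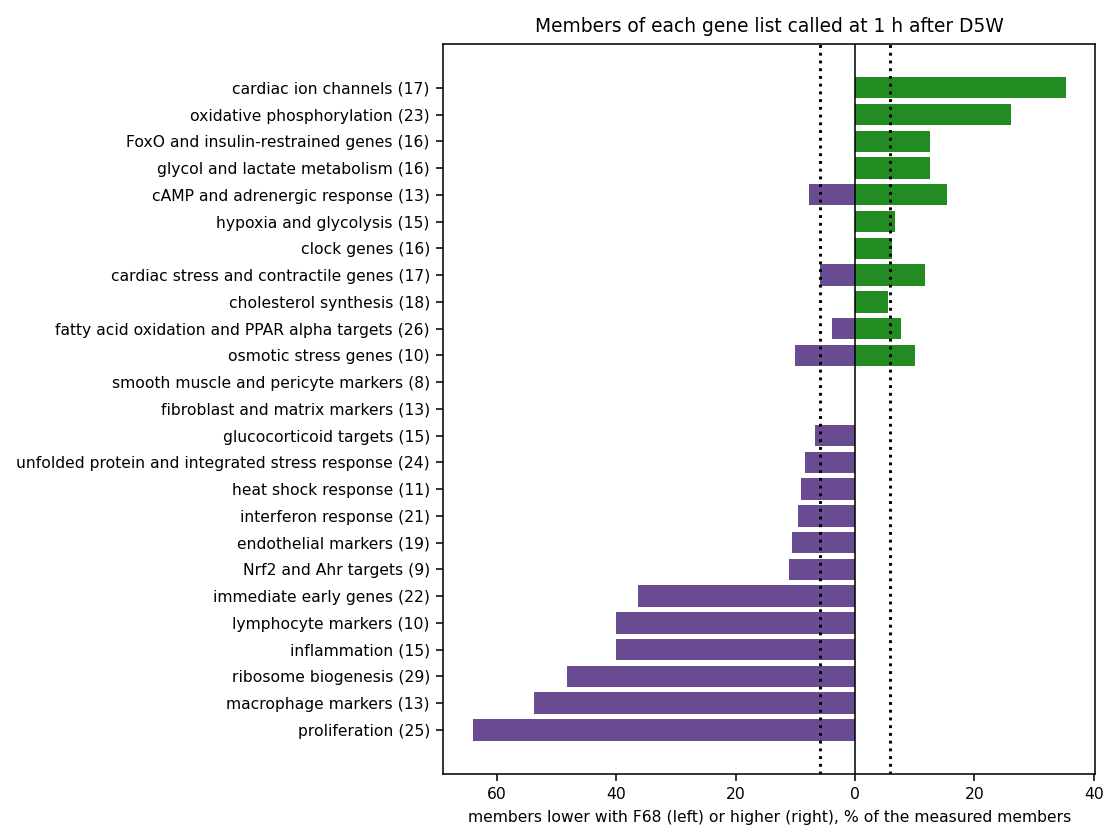
Share of the measured members of 25 gene lists (number measured in parentheses) that were called lower (purple, left) or higher (green, right) with F68 at 1 h after D5W; dotted lines mark the shares over all genes tested, 5.83% lower and 5.8% higher. Proliferation (16 of 25), macrophage markers (7 of 13) and ribosome biogenesis (14 of 29) reach furthest left, and cardiac ion channels (6 of 17) furthest right.

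The other genes with the highest differences at 1 h belonged to no single list. Sc5d, an enzyme late in cholesterol synthesis, read 6.94, 7.18, 7.28 and 7.59 with water and 8.25, 7.91, 7.78 and 8.10 with F68 (0.76 ± 0.19, adjusted p = 0.00466), while 0 of the other 17 genes of that list passed. Npas2, a partner of the clock factor Bmal1, read 6.40, 6.13, 5.87 and 6.50 with water and 6.90, 7.16, 7.01 and 6.54 with F68 (0.68 ± 0.19, adjusted p = 0.011), and 0 of the other 15 clock genes passed. Smim5, a small membrane protein, read 8.66 to 9.31 in the 4 water rats and 9.52 to 9.72 in the 4 F68 rats (0.66 ± 0.13, adjusted p = 0.000586). The groups did not overlap in any of the 3. With the 8 rats left out in turn, Lysmd4 (0.69 ± 0.22) lost its call without 4 of them, Asb18 (0.68 ± 0.23) without 5, Dpy19l4 (0.62 ± 0.21) without 6, Iqub (0.60 ± 0.17) without 3, Npas2 and Akap6 without 2 and Fgf9 without 1. Akap6, which anchors protein kinase A at the nuclear envelope of heart muscle (0.62 ± 0.16), Gata5, a cardiac transcription factor (0.61 ± 0.13), Naa40, an acetyltransferase of histone tails (0.61 ± 0.12), and the growth factor Fgf9 (0.60 ± 0.16) completed the 12 highest.

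Lists that bear on the vehicle itself or on hormones had 1 or 2 members called at 1 h, where 11.6% of all genes were called. Of 16 genes of glycol and lactate metabolism 2 were higher and 0 lower: Slc16a1, the lactate transporter MCT1 (0.28 ± 0.08), and Mpc1, of the mitochondrial pyruvate carrier (0.12 ± 0.04), with a list median of 0.10. Of 10 osmotic stress genes Slc38a2, a carrier of small neutral amino acids, was higher (0.38 ± 0.09) and S100a4 lower (-0.60 ± 0.18). Of 15 glucocorticoid targets only Mt2A passed, and it was lower (-1.01 ± 0.32). Of 16 FoxO targets the muscle ubiquitin ligases Fbxo32 (0.43 ± 0.14) and Trim63 (0.31 ± 0.09) were higher (list median 0.14). Of 6 insulin-raised genes the glucose carrier Slc2a4 was higher (0.23 ± 0.07), and none of the 6 lay below 0 (median 0.12). With the 8 rats left out in turn, Mpc1 lost its call without 7 of them, Fbxo32 without 5, Mt2A without 4 and S100a4 without 3. Slc16a1 and Trim63 lost theirs without 2 and Slc2a4 without 1, and Slc38a2 kept its call each time.

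In each of the remaining lists 0 to 3 members passed, where 11.6% of all genes were called. Pde4d, a phosphodiesterase that breaks down cAMP, read 9.03 to 9.19 with water and 9.22 to 9.55 with F68 (0.29 ± 0.08, adjusted p = 0.00751), and with Ppargc1a higher and Crem lower (-0.18 ± 0.06) made up 3 of 13 cAMP genes. Asns (-0.59 ± 0.15) and Atf3 were lower among 24 genes of the unfolded protein response, Hmox1 (-0.76 ± 0.26) among 9 Nrf2 and Ahr targets and the chaperone Hspb1 (-0.43 ± 0.15) among 11 heat shock genes. Vegfa was higher (0.33 ± 0.09) among 15 hypoxia and glycolysis genes. Of the cell markers, Emcn (-0.36 ± 0.08) and Egfl7 (-0.25 ± 0.09) were lower among 19 endothelial genes and Cfd (-0.83 ± 0.22) among 5 adipocyte genes, and 0 passed among 13 fibroblast, 8 pericyte, 3 neutrophil, 5 erythroid, 4 atrial, 4 kidney and 8 liver genes. The nearest were Postn among the fibroblast genes (-1.02, adjusted p = 0.0552) and Alas2 among the erythroid genes (-0.31, adjusted p = 0.351).

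At 6 h the 2 genes called were Mxd3 and Cox5a. Mxd3, a member of the Myc and Max network of factors, read 6.37, 6.02, 5.95 and 5.98 with water and 5.51, 5.26, 5.76 and 5.86 with F68 (-0.48 ± 0.10, adjusted p = 0.0339). It was also lower at 1 h, at 6.01 to 6.12 with water and 5.66 to 5.85 with F68 (-0.28 ± 0.10, adjusted p = 0.0434). It was the single gene called at both times, but the call at 1 h was lost for 7 of the 8 rats left out in turn. All F68 values of Mxd3 lay below the floor of 6 at both times, so the size of its differences is uncertain, and with a floor of 7 the gene was not tested and 0 genes were called at 6 h. Cox5a, annotated as a subunit of cytochrome oxidase, read 8.14, 8.11, 8.16 and 8.31 with water and 7.83, 7.74, 7.68 and 7.69 with F68 (-0.45 ± 0.09, adjusted p = 0.0339). The oxidative phosphorylation list had mean levels of 13.24 to 13.30 in the same hearts. Whether this probe set reads the main Cox5a transcript was not tested. Cox5a also lost its call with the beta-actin covariate, with array weights and with only the hearts at 1 and 6 h in the fit. The groups did not overlap in either gene, as they did not in 4.88% of all genes tested at 6 h (3.04% lower with F68 and 1.84% higher). Both were lower after oxaliplatin at 6 h as well, Mxd3 at -0.34 (adjusted p = 0.0176) and Cox5a at -0.32 (adjusted p = 0.0208). Leaving out 1 rat at 6 h ended the call of Mxd3 for 4 of the 8 rats and of Cox5a for 5.

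The genes next in order at 6 h shared an adjusted p of 0.0621 and are named after their values were seen. They included Cdc20 (-0.63), Rpa3, a subunit of the protein that coats single-stranded DNA (-0.38), Knstrn, a spindle protein (-0.73), the potassium channel Kcnk3 (0.44), the glutathione synthetase Gss (-0.34), Clasrp (-0.36), Pmf1 (-0.37) and Eif4ebp2 (0.32). Of 34 lists 33 had 0 members called at 6 h. The count of 2 became 117 (34 higher, 83 lower) without water rat 2 and 104 (10 higher, 94 lower) without F68 rat 3, and 0 without water rats 1 or 4 or F68 rats 1 or 2.

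The difference between times was tested for each gene. It passed for 29 genes (0.256%), 11 with a higher F68 minus water difference at 6 h and 18 with a lower one. Gfpt2, of the hexosamine pathway, had a difference that went from -0.68 at 1 h to 0.31 at 6 h (0.99 ± 0.21, adjusted p = 0.025). It read 8.93, 8.75, 9.82 and 9.53 with water and 8.49, 8.52, 8.75 and 8.55 with F68 at 1 h, and 8.18 to 8.53 and 8.28 to 9.30 at 6 h. Runx1, a transcription factor, went from -0.62 to 0.10, the phosphate carrier Slc20a1 from -0.44 to 0.06, and Ier2 from -0.40 to 0.20. In the other direction Smim5 went from 0.66 to -0.21, Gstcd from 0.44 to -0.16, Tsc1, which restrains the kinase mTOR, from 0.32 to -0.11, Pdk2 from 0.29 to -0.01, Cox5a from 0.16 to -0.45 and Clasrp, a splicing regulator, from 0.22 to -0.36. Tsc1 read 7.89 to 8.03 with water and 8.21 to 8.32 with F68 at 1 h, and 7.96 to 8.09 and 7.86 to 7.95 at 6 h. Among the genes of the preceding paragraphs Tnfaip6, Egr2, Egr1 and Crem also differed between times (adjusted p = 0.0462 for each). For Ccl2 (adjusted p = 0.496), Mki67 (0.875) and Kcnj11 (0.0667) the difference between times did not pass.

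Rats infused with oxaliplatin (15 mg per kg) in place of D5W gave the same comparison of oral vehicles in 16 other hearts, with the same tie between vehicle and dosing day. There 108 genes differed at 1 h (0.954%; 78 or 0.689% higher, 30 or 0.265% lower) and 868 at 6 h (7.67%; 133 or 1.18% higher, 735 or 6.5% lower), so the time with more calls was not the same as after D5W. With quantile normalization the splits were 91 higher and 76 lower at 1 h and 231 higher and 516 lower at 6 h. The count at 1 h was 0 without water rat 2 of that pair and 0 with the beta-actin covariate, and at 6 h it was 347 without water rat 1, 399 without F68 rat 1 and 429 with that covariate. Of the 1316 genes called at 1 h after D5W, 75.8% had the same sign at 1 h after oxaliplatin, as had 62.6% of all genes, and 19 were called there too (16 higher, 3 lower, 0 in opposite directions). Those 19 were 1.44% of the former and 17.6% of the 108. Of the 868 genes called at 6 h after oxaliplatin, 90.8% had the same sign at 6 h after D5W, as had 67.1% of all genes.

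The infusions differed in few genes when the difference of the F68 effects was tested: 5 genes at 1 h (0.0442%) and 0 at 6 h, where 661 had an unadjusted p under 0.05. Runx1 stood at -0.62 after D5W and 0.15 after oxaliplatin (difference 0.77 ± 0.16, adjusted p = 0.0199) and the translation helicase Eif4a1 at -0.25 and 0.16. Smim5 stood at 0.66 and -0.21, Gstcd at 0.44 and -0.20, and the thyroid hormone receptor Thra at 0.24 and -0.22. Runx1 read 6.90, 6.78, 7.80 and 7.21 with water and 6.59, 6.49, 6.54 and 6.58 with F68 after D5W, its high values again in water rats 3 and 4. The count of 5 was 0 without F68 rat 2 or water rat 3 of the D5W rats and 135 without their water rat 1.

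The genes that recurred over different rats were described next, in a comparison chosen after the values were seen. All water rats shared 1 dosing day and all F68 rats another, with either infusion. Recurrence over the pairs therefore cannot separate vehicle from dosing day. Of the 1316 genes at 1 h after D5W and the 868 at 6 h after oxaliplatin, 198 were called in both with the same sign (15.0% and 22.8%), 28 higher and 170 lower, and 3 were called with opposite signs. Of the 198, 176 also had that sign in the 2 other pairs, and over all 11316 genes 2444 lay below 0 and 1451 above 0 in all 4 pairs. Besides cell division genes, the lower ones included the actin branching subunits Arpc3 (-0.38 and -0.40) and Arpc1b (-0.41 and -0.36), the actin regulator Coro1b (-0.30 and -0.31), Pcolce, which enhances procollagen processing (-0.48 and -0.52), the purine enzyme Pnp (-0.34 and -0.41), the receptor kinase Grk6 (-0.36 and -0.41), the peroxiredoxin Prdx4 (-0.37 and -0.43), the endothelial protein Ecscr (-0.43 and -0.42) and the replication factors Gins1 (-0.34 and -0.40) and Cenpk of the kinetochore (-0.71 and -0.70).

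Arpc3 read 11.00, 11.11, 11.17 and 11.08 with water and 10.77, 10.62, 10.97 and 10.50 with F68 at 1 h after D5W, and Pcolce read 9.50, 9.57, 9.57 and 9.85 with water and 9.23, 8.99, 9.22 and 9.12 with F68. Neither overlapped, and water rats 3 and 4 did not stand apart together in either. Rbm3, an RNA-binding protein that mild cold raises, read 10.04, 10.25, 10.34 and 10.23 with water and 9.74, 9.37, 9.65 and 9.61 with F68 at 1 h after D5W (-0.62 ± 0.16, adjusted p = 0.00644). It stood at -0.53 at 6 h (adjusted p = 0.125), at -0.56 at 1 h after oxaliplatin (adjusted p = 0.0568) and at -0.51 at 6 h after oxaliplatin (adjusted p = 0.0347). Rbm3 kept its call at 1 h with any 1 rat left out and lost it with the beta-actin covariate and without water rats 3 and 4. Rack1, a ribosomal scaffold, was the single gene called lower in 3 pairs, with the small differences -0.13, -0.15 and -0.12.

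Called higher in the same 3 pairs were 7 genes, named after their values were seen: Hipk3, Lman1, Oga, Slc16a1, Dcbld2, Kbtbd3 and St3gal6. Hipk3, a kinase, read 7.33, 7.19, 7.43 and 7.48 with water and 7.44, 8.18, 7.61 and 8.40 with F68 at 1 h after D5W (0.55 ± 0.16, adjusted p = 0.0145). It stood at 0.63 at 1 h and 0.52 at 6 h after oxaliplatin (adjusted p = 0.0278 and 0.0265) and at 0.52 at 6 h after D5W (adjusted p = 0.125). F68 rats 2 and 4 were the highest at 1 h after D5W, while all 8 F68 rats given oxaliplatin read 8.01 to 8.26. Lman1, a cargo receptor of the secretory pathway, stood at 0.42, 0.62, 0.32 and 0.42 in the order 1 h after D5W, 1 h after oxaliplatin, 6 h after D5W and 6 h after oxaliplatin.

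The groups of Oga, which removes O-GlcNAc from proteins, of Slc16a1 and of Ppat, the enzyme that commits purine synthesis, did not overlap in any of the 4 pairs. Of all genes, 7.33% and 1.84% were higher without overlap at 1 and 6 h after D5W, and 4.38% and 2.03% at 1 and 6 h after oxaliplatin, where groups were apart in either direction for 8.06% and 9.33%. Slc16a1 read 11.95, 11.85, 11.88 and 11.88 with water and 12.06, 12.33, 12.01 and 12.30 with F68 at 1 h, and 11.84, 12.16, 12.04 and 11.93 with water and 12.16, 12.24, 12.25 and 12.31 with F68 at 6 h, after D5W. Its differences in the order above were 0.28, 0.30, 0.25 and 0.27. These 3 and Cdca8 were the only genes of 11316 whose groups were apart in one direction in all 4 pairs.

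**Figure D5:**
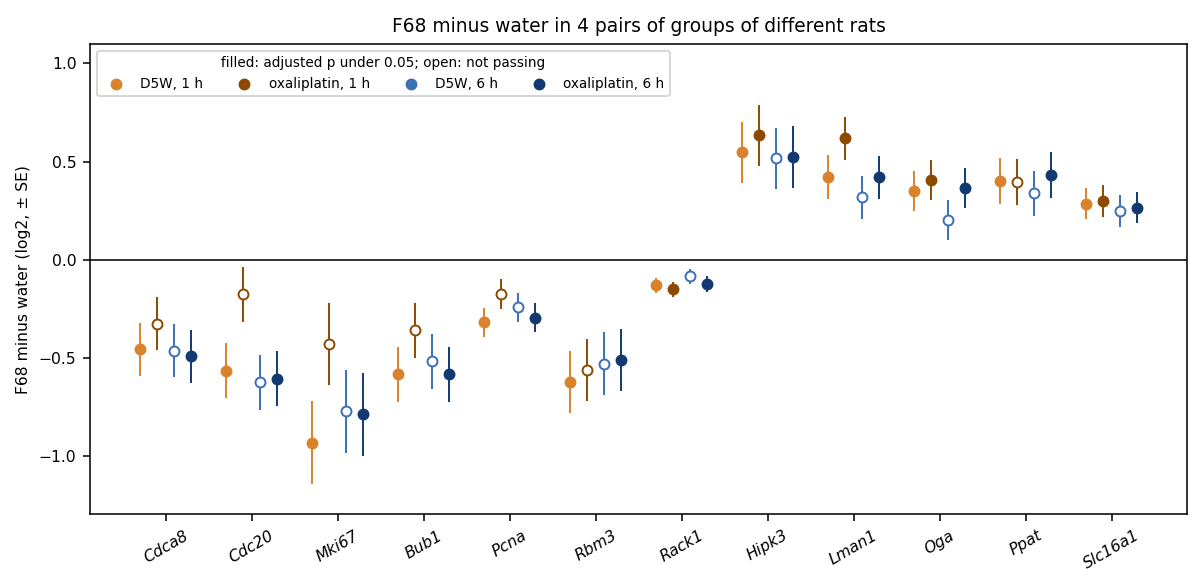
Log2 difference of F68 minus water (± SE from limma) for 12 genes in 4 pairs of groups of 4 and 4 rats, after D5W or oxaliplatin and at 1 or 6 h; filled points had an adjusted p under 0.05. Cdca8 to Rack1 lie below 0 and Hipk3 to Slc16a1 above 0 in each of the 4 pairs.

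Kidney and liver of the same treatment groups were used to see where heart differed. They came from the same rats as the hearts, and the fit took all arrays as independent. The genes were those that passed the floor in heart, each read by its heart probe set. No floor was set in kidney or liver. For a gene near background there, a difference between tissues may only repeat its difference in heart. The F68 effect at 1 h differed between heart and kidney in 310 genes (2.74%; 1.05% with a higher effect in heart and 1.69% with a lower one) and between heart and liver in 69 (0.61%; 0.221% higher and 0.389% lower), of which 199 and 53 were among the 1316 genes called in heart. The heart difference enters both the call and this test, so that overlap was partly built in. Of the 1316 genes, 66.5% had the same sign in kidney and 63.9% in liver, as had 58.7% and 55.3% of all genes. At 6 h the numbers were 65 (0.574%) and 19 (0.168%), with 0 of the 2 heart genes among them. Ccl2 stood at -2.28 in heart, 0.69 in kidney and 0.90 in liver at 1 h (heart minus kidney -2.98 ± 0.84, adjusted p = 0.0304; heart minus liver -3.19 ± 0.72, adjusted p = 0.0164). Reg3b, Tnfaip6, Ch25h, Tnfrsf11b and Cd14 likewise differed from both other tissues, and Egr2, Timp1 and Ccl7 from kidney, by these tests. Ppargc1a stood at 0.57 in heart, 0.06 in kidney and -0.36 in liver and differed from both (adjusted p = 0.0261 and 0.0267), as did Gata5, while Cacna1h, Kcnq1, Kcnj3, Mul1, Pdk2, Akap6 and Asb18 differed from kidney and Sc5d from liver. For Mki67 the difference passed for neither tissue (-0.93 in heart, -0.25 in kidney, 0.05 in liver; adjusted p = 0.189 and 0.196). The count of 310 was 71 without heart water rat 3, 525 (350 higher, 175 lower) with arrays centred on the median and 9 with the vehicle arrays alone in the fit. With the array code that the tissues share as a random block, a fit chosen after seeing the data, and with no label saying that this code marks a rat, the counts at 1 h were 436 for kidney and 171 for liver.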

How the data were processed

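RNA from rat heart, kidney and liver was hybridised to 1-colour arrays. The authors normalized the arrays by RMA, and the deposited values are log2 signals for 31099 probe sets; RMA's version is not given in the sources used here. Probe sets were named from the platform annotation: 20826 had 1 symbol, 436 had several and were left unnamed, 57 were controls, and the Entrez ID of 20764 was found in RefSeq. The probe set with the highest mean over the heart arrays stood for a gene, and 11316 genes with a log2 level above 6 on at least 4 heart arrays were tested. The number of arrays limits the precision.

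A mean for each of the 24 heart groups over the 96 heart arrays was fitted with limma 3.58.1 in R 4.3.3 (72 residual degrees of freedom), and Benjamini-Hochberg adjusted p-values under 0.05 were called. The script was tested on simulated data. Kidney and liver were fitted with heart for the differences between tissues, without 2 arrays of other groups whose tissue markers went against their label. Groups came from the labels, which give no replicate numbers, so rat numbers only name arrays. Nothing in the labels says more of how the 4 rats of a group relate. The SEs and p-values from limma rest on a spread within groups that was pooled over the 24 heart groups. They do not measure the spread between the rats of a comparison alone, which was wider for some genes.

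The genes named were the 12 highest and 12 lowest called at each time, up to 6 called members of each of 34 lists (the 2 of smallest p where none was called), those called at both times and the 10 of smallest p for the difference between times; others are given as chosen after their values were seen. The members and lists were chosen with earlier results of these data known. Alternatives changed the arrays fitted, the filter, the probe set, the scaling, covariates, weights and the prior. Leaving out groups of high beta-actin, water rats of high Ccl2 or arrays of high liver markers was chosen after seeing the data, as were the random block of the array code shared across tissues (limma duplicateCorrelation) and the CCAAT and CHR motifs. Promoters were taken from RefSeq (GRCr8).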

Additional observations from a re-analysis of the deposited data

Results flagged for a closer look

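Single hearts stood apart from the other 3 of their group in 15 of 180 groups of 4 values tested. Chance marks about 1 in 20 groups where the values are independent. The 45 genes used were chosen by their results or after their values were seen, and they share the same hearts. The count can therefore not be set against that rate. At 1 h with water the values that stood apart were Cd3g at 10.53 and Cd3e at 8.80, both in water rat 1, Ttn at 13.54, Slc20a1 at 10.11, Ryr2 at 12.69 and Ppargc1a at 8.97. At 1 h with F68 they were Lck at 8.27 and Lysmd4 at 8.36. At 6 h with water they were Alb at 9.42, Cd14 at 8.27, Mxd3 at 6.37, Ryr2 at 13.14 and Sc5d at 7.12, and with F68 Lck at 8.79 and Timp1 at 10.20.

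The F68 minus water difference changed between 1 and 6 h (6 h minus 1 h, limma) by 0.99 for Gfpt2, 0.73 for Runx1, 0.60 for Ier2, 0.50 for Slc20a1, -0.30 for Pdk2, -0.43 for Tsc1, -0.58 for Clasrp, -0.60 for Gstcd, -0.61 for Cox5a and -0.87 for Smim5. Between infusions at 1 h (oxaliplatin minus D5W) it differed by 0.77 for Runx1, 0.41 for Eif4a1, -0.46 for Thra, -0.64 for Gstcd and -0.87 for Smim5.

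Between heart and kidney at 1 h the difference was -2.98 for Ccl2, -1.80 for Reg3b, -1.75 for Angptl4, -1.74 for each of Ccl7, Ch25h and Tnfrsf11b, -1.69 for Tnfaip6, -1.45 for Timp1 and -1.18 for Egr2. It was 1.28 for Cacna1h, 1.04 for Asb18, 0.96 for Akap6 and 0.59 for Gata5. Between heart and liver it was -3.19 for Ccl2, -2.03 for Reg3b, -1.26 for Tnfrsf11b, -1.23 for Ch25h and -1.21 for Tnfaip6, and 0.61 for Gata5 and 1.13 for Sc5d.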

How the results depend on the processing

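Of 2142 values under the alternatives, 2141 kept their direction and 1648 their call, and 493 lost the call. These were values of genes named by rule, without those named only after their values were seen. The exception in direction was Xirp1 at 1 h, at 0.0822 without both water rats of high Ccl2. Causes of the changes were not tested. No paired analysis was possible because the labels give the F68 and water rats no replicate numbers in common. With 1 rat left out, the counts ranged from 505 to 1490 at 1 h after D5W, 0 to 117 at 6 h, 0 to 124 for the difference between times, 0 to 135 at 1 h and 347 to 1153 at 6 h after oxaliplatin, 0 to 135 for the difference between infusions at 1 h, 71 to 383 and 5 to 300 for heart against kidney at 1 and 6 h, and 13 to 133 and 14 to 33 for heart against liver. The share of same signs after oxaliplatin ranged from 64.2% to 85.3%.

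With only the vehicle arrays in the fit, the counts were 371 at 1 h and 1 at 6 h after D5W, 2 between times, 17 and 267 after oxaliplatin, 0 between infusions at 1 h, 9 and 2 for heart against kidney and 2 and 12 for heart against liver. With the beta-actin covariate they were 637, 0, 8, 0, 429 and, between infusions, 27. With the hearts at 1 and 6 h alone they were 0 at 6 h, 7 between times, 57 at 1 h after oxaliplatin and 0 between infusions. Quantile normalization gave 41 at 6 h, 11 between times, 167 at 1 h after oxaliplatin and 26 between infusions, and median centring 16, 49 (between times), 28 (between infusions) and 525 (heart against kidney, 1 h). Array weights gave 0 at 6 h, 0 between times, 306 at 1 h after oxaliplatin and 53 between infusions. A floor of 7 gave 0 at 6 h and 20 between infusions, no filter 13 between times, and every probe set 10 between times and 641 at 1 h after oxaliplatin. The code letter as a block gave 17 at 6 h and 18 between times. Leaving out the groups of high beta-actin gave 14 between times, the water rats of high Ccl2 125 at 1 h and 9 between times, and the arrays of high liver markers 490 at 1 h, 0 between times and 0 between infusions. For the tissues of the same rats, the shared array code as a random block, chosen after seeing the data (consensus correlation 0.0823 with kidney and 0.0881 with liver), gave 171 for heart against liver at 1 h and 98 for heart against kidney at 6 h.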
